A study of Homo sapiens with 20 samples.

Results

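Notch genes were followed in MDA-MB-468 cells during EGF-treatment. The set held 9 genes chosen by name among 60271 listed genes: the receptors NOTCH1, NOTCH2 and NOTCH3, the ligands JAG1, JAG2 and DLL1, and the targets HES1, HEY1 and NRARP. The rule used gene names only. All 9 were in the count table, and 8 passed the filter on low counts, with DLL1 left out. MDA-MB-468 is an established epithelial line from a triple-negative breast cancer with high EGFR. All cells were seeded, serum-starved for 24 h and harvested together. EGF-treated cells received 50 ng/mL EGF 12, 24, 48 or 72 h before harvest, and untreated control (CTR) cells stayed in serum-free medium. With EGF started at different times before a shared harvest, the time without serum may differ between groups, and its part was not tested. Each of the 5 groups held 4 biological replicates, grown as wells of 1 line, so the p-values measure the spread between wells and not between tumours or lines. Libraries came from poly(A) RNA and were read as single 75-base reads.

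Notch receptors are cut by furin in the secretory pathway and reach the surface as heterodimers. Binding of a Jagged or Delta ligand on a neighbouring cell allows an ADAM protease and then gamma-secretase to cut the receptor. The released intracellular domain joins RBPJ and a Mastermind protein in the nucleus and activates genes such as HES1, HEY1 and NRARP. HES1 and HEY1 are transcriptional repressors, and NRARP is a small protein that limits the activity of the Notch complex. In breast epithelium the pathway is known for its part in cell fate choices, and Jagged ligands and Notch receptors are studied in triple-negative tumours.

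The promoters of 2 of the targets are shown because these windows differ in TGGGAA, the letters searched here for RBPJ. Both are RefSeq sequences of GRCh38.p14, from 250 bases before to 50 bases after the start of the gene, written 5′ to 3′ along the gene. Capitals mark TGGGAA, the core of the RBPJ motif. Other forms of this motif were not searched. The first lies at chr3:194135898-194136197 on the plus strand, and the second at chr9:137302222-137302521 on the minus strand.
HES1: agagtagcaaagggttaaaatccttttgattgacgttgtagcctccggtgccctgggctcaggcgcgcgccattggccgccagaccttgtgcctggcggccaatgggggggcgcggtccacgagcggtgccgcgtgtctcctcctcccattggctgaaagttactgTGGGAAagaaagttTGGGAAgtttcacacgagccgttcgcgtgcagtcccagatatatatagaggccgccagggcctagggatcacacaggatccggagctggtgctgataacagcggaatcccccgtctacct
NRARP: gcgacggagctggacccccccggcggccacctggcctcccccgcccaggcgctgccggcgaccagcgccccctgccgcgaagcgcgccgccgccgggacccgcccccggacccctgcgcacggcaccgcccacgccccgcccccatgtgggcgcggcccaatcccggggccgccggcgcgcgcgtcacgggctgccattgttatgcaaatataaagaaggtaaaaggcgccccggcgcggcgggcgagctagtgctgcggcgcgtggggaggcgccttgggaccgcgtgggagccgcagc
The HES1 window held TGGGAA 2 times, both on the strand of the gene, starting 84 and 70 bases before the start. TGGGAA was searched on both strands, and 24% of 35116 promoters of this length held it. None of the other 6 members searched, NOTCH1, NOTCH2, NOTCH3, JAG1, JAG2 and NRARP, held it. HEY1 and DLL1 were not searched for any motif. CACNAG, the N-box to which HES proteins bind, was found at 4 places in the HES1 window, 165, 132 and 58 bases before and 15 bases after the start. NOTCH1 held it 2 times and NOTCH2, NOTCH3 and NRARP 1 time each, NRARP at 2 bases before the start. Thus 5 of the 7 members searched held it, and 38% of all windows did. It overlapped no TGGGAA in HES1. TGANTCA, the AP-1 motif, was in 7.71% of all windows and in none of the 7 members searched. These are matches of letters and not measured binding.

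The libraries held 15611961 to 25856953 counts each, and mitochondrial genes took 7.69 to 16.9% of them, with group means of 10.9% in CTR and 9.41, 12.4, 12.5 and 15.0% in order of time. The highest share was that of EGF 48 h replicate 2, and its part in the results was not tested. Levels are given as CPM, counts scaled to library size, with TMM factors. Changes are log2 fold changes ± SE from edgeR's quasi-likelihood test in 1 model of all 20 libraries, and a change was called at an adjusted p under 0.05, with Benjamini-Hochberg adjustment over 16522 genes. All 4 times were compared with the same 4 CTR libraries. Epithelial markers were high in every library, with EPCAM at 138 to 225 CPM and CDH1 at 83.0 to 186 CPM. PGR had 0 counts in every library, ESR1 was at 1.91 to 6.53 CPM, and ERBB2 was at 7.79 to 24.6 CPM. The sum of the 6 epithelial markers was 1586 to 1998 CPM in CTR and 8118 to 8673 CPM at 12 h. It was 3900 to 4773 CPM at 24 h, 1733 to 1879 CPM at 48 h and 2377 to 2804 CPM at 72 h. KRT18 had the largest part, with a mean of 788 CPM in CTR and 5136 CPM at 12 h. The mean of EPCAM was 181 CPM in CTR, 215 CPM at 12 h and 144 CPM at 72 h. That of CDH1 was 127, 181 and 90.6 CPM. EGFR itself was at 3357 to 3583 CPM in CTR and 11400 to 12124 CPM at 12 h. Of the 5 leukocyte markers, PTPRC had at most 8 counts and CD3E at most 2 in any library. The sum of that list was 4.07 to 4.76 CPM in CTR and 28.0 to 33.0 CPM at 72 h, with CD68 at up to 28.0 CPM. The 6 fibroblast markers summed to 5.48 to 7.99 CPM in CTR and 13.7 to 15.4 CPM at 72 h, of which COL1A1 held up to 14.8 CPM, while COL1A2, COL3A1 and LUM had at most 1 count in any library. The 4 endothelial markers summed to 1.43 to 6.07 CPM over all libraries, with CDH5 at 3 counts or fewer. The part of these markers in the results below was not tested.

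Per length, HES1 was the member with the highest level and NOTCH3 and NOTCH2 were the receptors with the most RNA. In CTR, HES1 was at 79.3 ± 6.62 CPM per kb of merged exon (SD, n = 4). NOTCH3 was at 23.6 ± 2.37, NOTCH2 at 12.8 ± 0.561, JAG1 at 2.96 ± 0.133 and NOTCH1 at 1.88 ± 0.316 CPM per kb. NRARP stood at 1.86 ± 0.262, HEY1 at 0.319 ± 0.0703 and JAG2 at 0.128 ± 0.0502 CPM per kb. JAG1 was therefore the ligand with most RNA in untreated cells. At 12 h of EGF, JAG1 reached 10.6 ± 0.295 and NOTCH1 5.03 ± 0.342 CPM per kb.

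**Figure D1:**
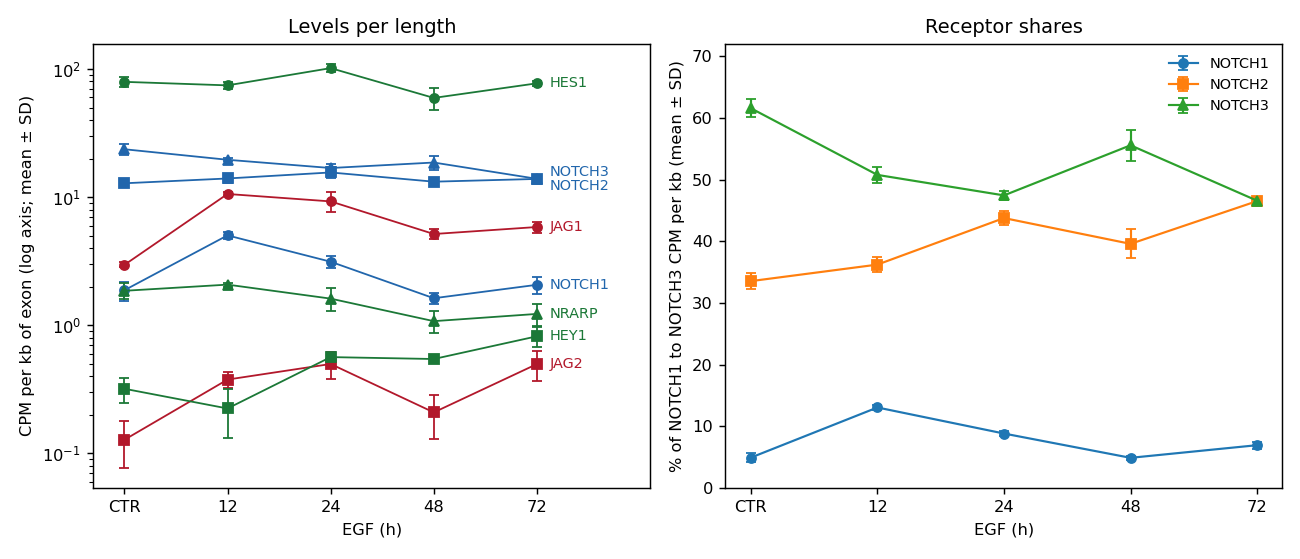
Left, group means of CPM per kb of merged exon on a log axis, with SD over 4 libraries, for the 8 tested genes in untreated cells (CTR) and at the 4 times of EGF; receptors are blue, ligands red and targets green. Right, the share of each receptor in the summed CPM per kb of NOTCH1, NOTCH2 and NOTCH3, in percent with SD; NOTCH1 rises from 4.89% in CTR to 13.0% at 12 h, and NOTCH2 and NOTCH3 meet at 72 h.

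Against CTR, JAG1 and NOTCH1 had the changes with the smallest p among the members at 12 h, and only JAG1 and NOTCH3 were called at all 4 times. At 12 h, 4 of the 8 tested members were called, NOTCH1, JAG1 and JAG2 as higher and NOTCH3 as lower, where 69.4% of all tested genes were called, 32.9% higher and 36.5% lower. At 24 h, 7 of 8 were called, 6 higher and 1 lower, against 58.8% of all genes, 29.2% higher and 29.6% lower. At 48 h, 5 of 8 were called, 2 higher and 3 lower, against 45.8% of all genes, 24% higher and 21.8% lower. At 72 h, 5 of 8 were called, 3 higher and 2 lower, against 61.6% of all genes, 30.6% higher and 31% lower. The median log2 fold change of the 8 members was 0.14, 0.55, -0.08 and 0.13 at 12, 24, 48 and 72 h, and that of all genes was -0.05, -0.01, 0.01 and -0.01. The share of members called was close to that of all genes at 72 h and below it at 12 h. This is bulk RNA, so fewer cells with a transcript and less of it per cell cannot be told apart for any gene here.

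Scaling bears on small changes here. Without TMM, with library sizes only, the median of all genes moved by -0.28 at 12 h and -0.14 at 24 h on the log2 scale, and called genes were higher in 30.2% at 12 h in place of 47.4%, and in 36.3% at 24 h in place of 49.6%. At 12 h, HES1 (-0.37) and HEY1 (-0.79) were then called as lower, which made 3 members higher and 3 lower. Of 16522 genes, 3581 were then called as higher and 8275 as lower at 12 h. At 24 h, NOTCH2 and HES1 were then no longer called. At 48 and 72 h the same members were called in the same direction as with TMM.

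NOTCH1 (ENSG00000148400, GENCODE 29, GRCh38, chr9:136494433-136545786, minus strand, 33 merged exons) encodes the receptor best known from T-cell leukaemia. It was upregulated early and was back near the CTR level at 48 h. Its 4 CTR libraries held 17.2, 24.3, 17.7 and 18.6 CPM. At 12 h of EGF they held 52.4, 54.3, 47.1 and 54.8 CPM, and at 24 h 28.6, 33.3, 36.4 and 31.7 CPM. All 8 early EGF libraries lay above all CTR libraries, and the 12 h libraries lay above all 24 h libraries. At 48 h the values were 17.1, 18.2, 17.7 and 14.4 CPM, and at 72 h 22.0, 17.2, 24.8 and 21.8 CPM, which overlapped with CTR. The log2 fold change was 1.42 ± 0.11 at 12 h (adjusted p = 7.83e-11), a 2.68-fold level, and 0.74 ± 0.11 at 24 h (adjusted p = 6.01e-06). It was -0.21 ± 0.12 at 48 h (adjusted p = 0.144), with an interval of -0.45 to 0.03, and 0.14 ± 0.11 at 72 h (adjusted p = 0.300), with an interval of -0.10 to 0.38. In order of level, 48 h and CTR, and CTR and 72 h, did not differ, while 72 h was below 24 h and 24 h below 12 h beyond the spread. The 72 h level was above that of 48 h (0.35 ± 0.12, adjusted p = 0.0214). Without CTR replicate 2, at 24.3 CPM, the 72 h value was 0.27 and was called (adjusted p = 0.0358).

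NOTCH2 (ENSG00000134250, chr1:119911553-120069626, minus strand, 38 merged exons) encodes a receptor known for its part in marginal zone B cells and bile ducts. It was called only at 24 h, with a small rise. Its CTR libraries held 223, 222, 203 and 213 CPM, and its 24 h libraries 247, 249.5, 302 and 248 CPM. The 24 h libraries lay above all CTR libraries, with replicate 3 well above the other 3. Its log2 fold change was 0.28 ± 0.07 at 24 h (adjusted p = 0.00188), 0.12 ± 0.07 at 12 h (adjusted p = 0.129), 0.04 ± 0.07 at 48 h (adjusted p = 0.668) and 0.11 ± 0.07 at 72 h (adjusted p = 0.180). Without EGF 24 h replicate 3 the 24 h value was 0.21 and still called (adjusted p = 0.0131), and with library sizes only it was 0.14 and not called (adjusted p = 0.142). The 12 h value turned to -0.16 with library sizes only and to -0.04 with upper quartile scaling. No neighbours in its order of levels, CTR, 48 h, 72 h, 12 h and 24 h, differed beyond the spread. Of 16943 possible 75-base windows of NOTCH2 transcripts, 3395 also occur in transcripts of other genes, so part of its reads cannot be assigned with certainty. The transcripts searched were those of GENCODE 29, in which the IDs of the related genes NOTCH2NLB, NOTCH2NLC and NOTCH2NLR were not found.

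NOTCH3 (ENSG00000074181, chr19:15159038-15200981, minus strand, 33 merged exons) encodes the receptor of vascular smooth muscle. It was downregulated at every time, with the lowest level at 72 h. In CTR it stood at 239, 238, 191 and 219 CPM. They held 185, 189, 176 and 184 CPM at 12 h and 145, 159, 177 and 153 CPM at 24 h. At both times all EGF libraries lay below all CTR libraries, of which replicate 3 was closest. At 48 h the values were 169, 206, 162 and 162 CPM, of which replicate 2 overlapped with CTR, and at 72 h they were 134, 121, 141 and 126 CPM. Against CTR the log2 change was -0.27 ± 0.08 at 12 h (adjusted p = 0.00568), -0.49 ± 0.08 at 24 h (adjusted p = 2.46e-05), -0.34 ± 0.08 at 48 h (adjusted p = 0.00158) and -0.77 ± 0.08 at 72 h (adjusted p = 3.06e-08). The 72 h level was 1.70-fold below CTR. In order of level, 72 h was below 24 h and 12 h below CTR beyond the spread, while 24 h and 48 h, and 48 h and 12 h, did not differ.

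The receptor makeup followed from these changes. Of the summed CPM per kb of NOTCH1, NOTCH2 and NOTCH3, NOTCH1 made up 4.10 to 5.73% in the CTR libraries, 12.6 to 13.3% at 12 h, 8.36 to 9.18% at 24 h, 4.46 to 5.20% at 48 h and 6.05 to 7.36% at 72 h. NOTCH3 made up 59.6 to 63.0% in CTR and 45.9 to 47.4% at 72 h. NOTCH2 made up 32.4 to 35.4% in CTR and 45.6 to 47.1% at 72 h, so that these receptors had like shares after 72 h. The shares are a description without a test, and the share of NOTCH2 holds the reads that may belong to other genes. The shares also depend on the merged exon length used, 16807 bases for NOTCH2 and 9394 for NOTCH3. By CPM without length, NOTCH2 was at 215 and NOTCH3 at 222 in CTR, and at 233 and 130 at 72 h.

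**Figure D2:**
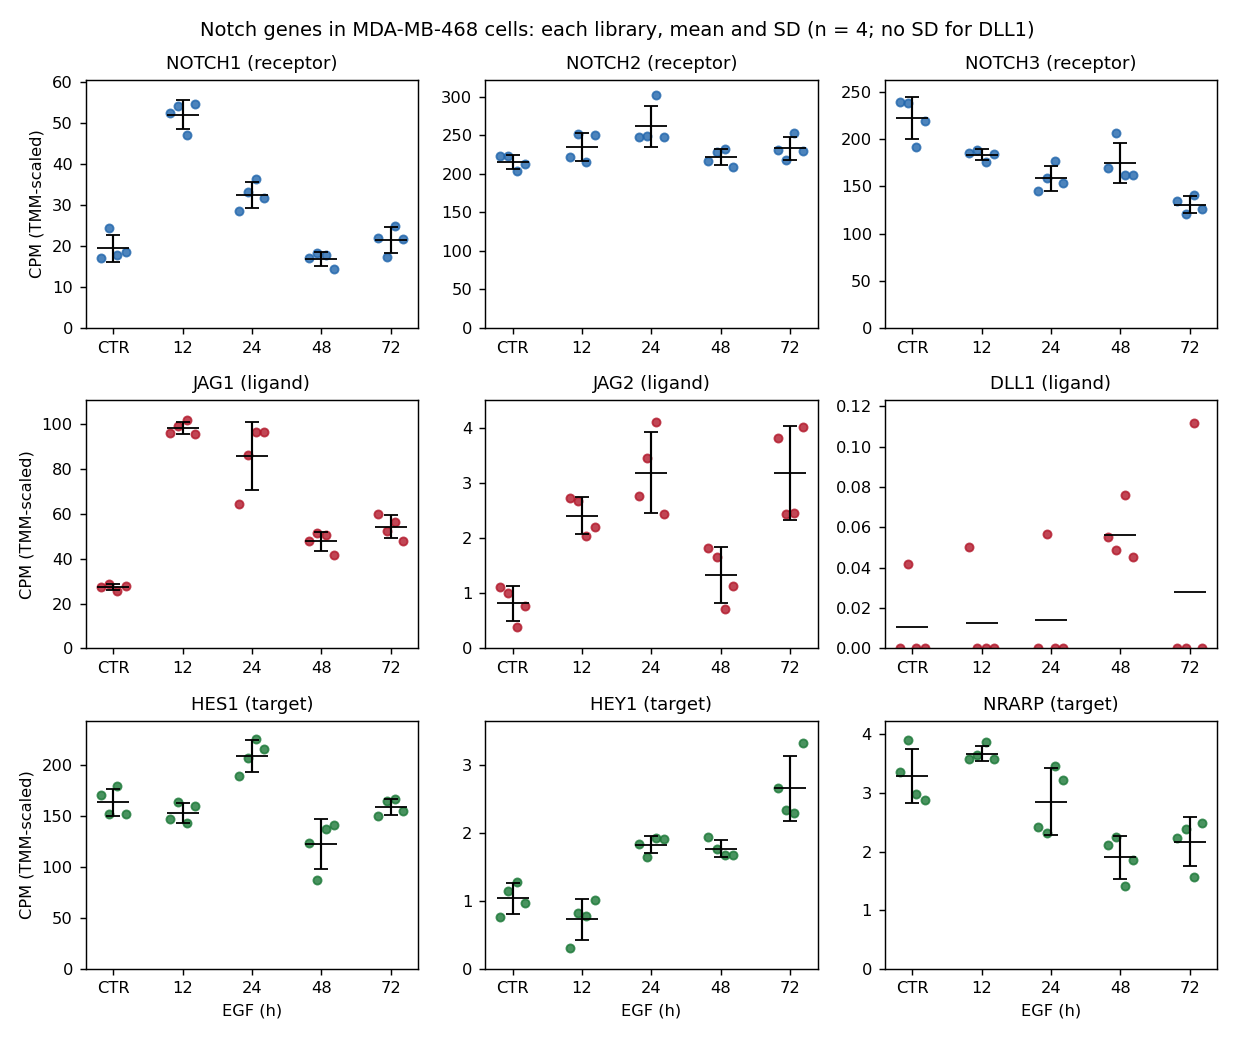
CPM of each member in each library (points), with the group mean and SD over 4 libraries (black), for untreated cells (CTR) and the 4 times of EGF; each panel has its own axis from 0. JAG1 and NOTCH1 stand high at 12 h, NOTCH3 falls to its lowest level at 72 h, HES1 peaks at 24 h and is lowest at 48 h, and DLL1 is shown without SD since no library held more than 2 counts.

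JAG1 (ENSG00000101384, chr20:10637684-10673999, minus strand, 24 merged exons) encodes the Jagged ligand that is mutated in Alagille syndrome. It was upregulated at every time and had the smallest adjusted p of the members at 12 and 24 h. The CTR libraries held 27.4, 28.8, 25.8 and 28.0 CPM. At 12 h they held 96.3, 99.3, 102 and 95.9 CPM, and at 24 h 64.5, 86.4, 96.6 and 96.6 CPM. Every EGF library at these times lay far above the CTR libraries, and replicate 1 was the lowest at 24 h. At 48 h the values were 48.0, 51.3, 50.4 and 41.8 CPM, and at 72 h 60.2, 52.3, 56.6 and 48.1 CPM, still above all CTR libraries. In log2 terms the change was 1.84 ± 0.10 at 12 h (adjusted p = 1.4e-13), a 3.58-fold level, and 1.64 ± 0.10 at 24 h (adjusted p = 1.63e-12). It was 0.80 ± 0.10 at 48 h (adjusted p = 7.53e-07) and 0.98 ± 0.10 at 72 h (adjusted p = 1.28e-08). CTR was below 48 h, and 72 h below 24 h, beyond the spread, while 48 h and 72 h, and 24 h and 12 h, did not differ. Its rise against CTR was called at all 4 times under every alternative tried, including a test against a 1.5-fold change.

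JAG2 (ENSG00000184916, chr14:105140981-105168824, minus strand, 25 merged exons) encodes the other Jagged ligand. It was low, with 9 to 99 counts per library, and was upregulated at 12, 24 and 72 h. Untreated cells held 1.11, 1.01, 0.384 and 0.769 CPM. They held 2.73, 2.67, 2.04 and 2.20 CPM at 12 h and 2.77, 3.45, 4.10 and 2.44 CPM at 24 h. These 8 libraries lay above all CTR libraries. At 48 h the values fell to 1.83, 1.66, 0.722 and 1.13 CPM, of which replicate 3 overlapped with CTR, and at 72 h they were 3.82, 2.45, 2.46 and 4.02 CPM. The log2 fold change was 1.56 ± 0.30 at 12 h (adjusted p = 5.66e-05), 1.96 ± 0.29 at 24 h (adjusted p = 3.77e-06), 0.69 ± 0.31 at 48 h (adjusted p = 0.0748) and 1.97 ± 0.29 at 72 h (adjusted p = 2.96e-06). In order of level CTR and 48 h did not differ, nor did 12 h and 72 h, or 72 h and 24 h, while 48 h was below 12 h beyond the spread. Without CTR replicate 1 the 48 h value was 0.86 and called (adjusted p = 0.0490), and without EGF 48 h replicate 3 it was 0.91 (adjusted p = 0.0166). An overlapping gene on the same strand covers 7.33% of its exon bases.

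DLL1 (ENSG00000198719, chr6:170282206-170306565, minus strand, 12 merged exons), a Delta ligand, was close to absent. It had 10 counts over all 20 libraries, in 8 of them, and at most 2 in any library. At 48 h all 4 libraries held 1 or 2 counts, and in each other group 1 of 4 libraries held any. A count of 0 allows up to 3 counts, or 0.114 to 0.192 CPM per library, for counting error only, and every library was under that limit. No fold change is given, and differences between groups were not detectable at this depth.

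HES1 (ENSG00000114315, chr3:194136145-194138732, plus strand, 3 merged exons), the repressor whose promoter is printed above, went up at 24 h and down at 48 h. Its CTR libraries held 171, 152, 179 and 152 CPM. The 12 h libraries held 148, 164, 143 and 159.6 CPM and overlapped with CTR. At 24 h they held 189, 207, 225 and 216 CPM, all above CTR, and at 48 h 123, 87.5, 138 and 142 CPM, all below. At 72 h the values were 150.2, 165, 167 and 155 CPM, again within the CTR range or just under it. The change in log2 was -0.09 ± 0.10 at 12 h (adjusted p = 0.443), 0.36 ± 0.10 at 24 h (adjusted p = 0.00496), -0.42 ± 0.10 at 48 h (adjusted p = 0.00204) and -0.04 ± 0.10 at 72 h (adjusted p = 0.765). In order of level 48 h stood below 12 h and CTR below 24 h beyond the spread, while 12 h and 72 h, and 72 h and CTR, did not differ. Without EGF 48 h replicate 2, at 87.5 CPM and with the highest mitochondrial share, the 48 h value was -0.28 and still called (adjusted p = 0.00484). Under library sizes only, the 12 h value was -0.37 and called (adjusted p = 0.00365), and the 24 h value was 0.21 and not called (adjusted p = 0.0947).

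HEY1 (ENSG00000164683, chr8:79764010-79767863, minus strand, 4 merged exons), a repressor related to HES1, was low, with 6 to 69 counts per library, and was upregulated from 24 h on. In CTR the libraries held 0.753, 1.14, 1.28 and 0.961 CPM. The 12 h libraries held 0.303, 0.817, 0.773 and 1.00 CPM, and the 24 h libraries 1.83, 1.64, 1.92 and 1.90 CPM. At 24 h and later all EGF libraries lay above all CTR libraries. The 48 h libraries held 1.94, 1.76, 1.67 and 1.68 CPM, and the 72 h libraries 2.66, 2.33, 2.29 and 3.32 CPM. The fitted log2 fold change was -0.52 ± 0.26 at 12 h (adjusted p = 0.0789), 0.81 ± 0.23 at 24 h (adjusted p = 0.00454), 0.75 ± 0.23 at 48 h (adjusted p = 0.00941) and 1.34 ± 0.22 at 72 h (adjusted p = 1.66e-05). The order was 12 h, CTR, 48 h, 24 h and 72 h, of which only CTR and 48 h differed as neighbours. The 12 h value was called as lower without CTR replicate 1 (-0.63, adjusted p = 0.0398), without EGF 12 h replicate 4 (-0.72, adjusted p = 0.0267), and with library sizes only or upper quartile scaling (-0.79 and -0.68, adjusted p = 0.00859 and 0.0227).

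NRARP (ENSG00000198435, chr9:137300482-137302251, minus strand, 1 exon, 754.7 kb from NOTCH1) was downregulated late. In untreated cells it was at 3.37, 3.91, 2.99 and 2.88 CPM. The 12 h libraries held 3.59, 3.65, 3.87 and 3.59 CPM and the 24 h libraries 2.42, 2.32, 3.46 and 3.22 CPM. Both overlapped with CTR. At 48 h the values were 2.11, 2.25, 1.41 and 1.86 CPM and at 72 h 2.24, 2.39, 1.56 and 2.49 CPM, all below CTR. The log2 fold change was 0.16 ± 0.17 at 12 h (adjusted p = 0.413), -0.21 ± 0.17 at 24 h (adjusted p = 0.311), -0.80 ± 0.18 at 48 h (adjusted p = 0.000701) and -0.60 ± 0.18 at 72 h (adjusted p = 0.00507). No neighbours in the order 48 h, 72 h, 24 h, CTR and 12 h differed, although 48 and 72 h differed from CTR. The 12 h value turned to -0.13 with library sizes only and to -0.01 with upper quartile scaling. The targets thus had different courses: at 48 h HES1 and NRARP were lower and HEY1 higher, and at 12 h none of them was called.

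**Figure D3:**
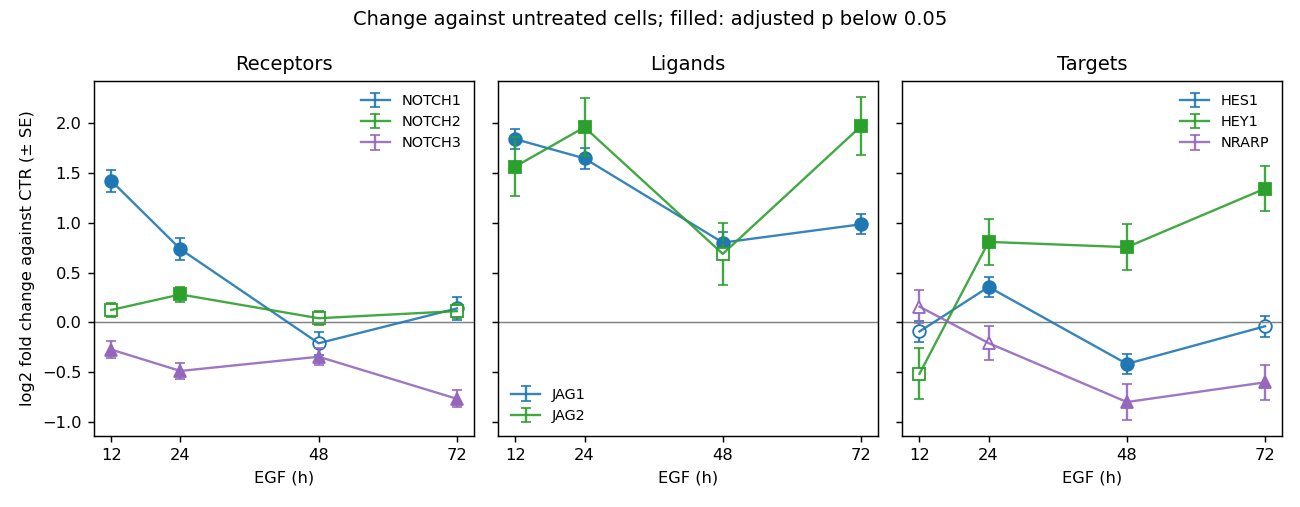
Log2 fold change against untreated cells (CTR), ± SE, at the 4 times of EGF for receptors, ligands and targets, from the model of all 20 libraries; filled symbols have an adjusted p under 0.05. NOTCH1 (1.42) and JAG1 (1.84) have their largest values at 12 h, though JAG1 did not differ between 12 and 24 h beyond the spread. NOTCH3 stays below 0, and HEY1 (1.34 at 72 h) and NRARP (-0.60) part late.

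Differences between successive times were tested in the same model. From 12 to 24 h, 4 of 8 members were called, against 53.7% of all genes, 27.9% higher and 25.9% lower: NOTCH1 (-0.69 ± 0.11, adjusted p = 1.58e-05) and NOTCH3 (-0.21 ± 0.08, adjusted p = 0.0341) fell, and HES1 (0.45 ± 0.10, adjusted p = 0.000884) and HEY1 (1.32 ± 0.25, adjusted p = 9.64e-05) rose. The fall of NOTCH3 was not called with library sizes only or upper quartile scaling (-0.07 and -0.10), nor without any of 6 single libraries, replicates 1, 2 and 4 at 12 h and at 24 h (adjusted p from 0.0570 to 0.109). Under library sizes only, 68.6% of the called genes were higher at 24 h, in place of 51.9%.

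From 24 to 48 h, 6 of 8 members fell and none rose, against 50.2% of all genes called, 24.3% as lower and 25.9% as higher. The falls were largest in JAG2 (-1.27 ± 0.28, adjusted p = 0.000527) and NOTCH1 (-0.94 ± 0.11, adjusted p = 4.07e-07). JAG1 fell by 0.84 ± 0.10 (adjusted p = 2.61e-07), HES1 by 0.77 ± 0.10 (adjusted p = 1.79e-06), NRARP by 0.59 ± 0.18 (adjusted p = 0.00908) and NOTCH2 by 0.24 ± 0.07 (adjusted p = 0.00828). Ligands, receptors and targets were all among the genes that fell, while NOTCH3 (0.14 ± 0.08, adjusted p = 0.162) and HEY1 (-0.05 ± 0.22, adjusted p = 0.865) were not called. With library sizes only, 5948 of 16522 genes were called as higher at 48 h and 2337 as lower, with 71.8% of the calls higher in place of 51.5%. Still 5 members were called as lower, with NOTCH2 lost (-0.08) and NOTCH3 called as higher (0.30, adjusted p = 0.00573). The fall of NOTCH2 was also lost without EGF 24 h replicate 3 (-0.17, adjusted p = 0.0518).

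From 48 to 72 h, 5 of 8 members were called, against 35.7% of all genes, 17.9% in each direction. JAG2 rose by 1.28 ± 0.27 (adjusted p = 0.000774), HEY1 by 0.59 ± 0.21 (adjusted p = 0.0346), HES1 by 0.38 ± 0.10 (adjusted p = 0.00629) and NOTCH1 by 0.35 ± 0.12 (adjusted p = 0.0214). NOTCH3 fell by 0.42 ± 0.08 (adjusted p = 0.000359). Without EGF 48 h replicate 2 the rise of HES1 was 0.25 (adjusted p = 0.0174). NOTCH1 was not called without EGF 48 h replicate 4 (0.28, adjusted p = 0.0836) or EGF 72 h replicate 3 (0.28, adjusted p = 0.0903), and HEY1 was lost without any of 5 single libraries, EGF 48 h replicates 2, 3 and 4 and EGF 72 h replicates 1 and 4 (adjusted p from 0.0601 to 0.124). With library sizes only, 3 members were called, JAG2, HES1 and NOTCH3. Of 16522 genes, 2132 were then called as higher and 4175 as lower, with 33.8% of the calls higher in place of 50.0%.

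Wider gaps were tested as well, and the shares of members called from 12 h on were near those of all genes. Between 12 and 48 h, 6 of 8 were called, against 70.3% of all genes, 37.7% higher and 32.5% lower, with HEY1 higher at 48 h (1.27 ± 0.25) and NOTCH1 (-1.63 ± 0.11), JAG1 (-1.04 ± 0.10), NRARP (-0.96 ± 0.18), JAG2 (-0.88 ± 0.28) and HES1 (-0.32 ± 0.10) lower. HES1 was lower by 0.20 without EGF 48 h replicate 2, and its value was -0.03 and not called with library sizes only (adjusted p = 0.828). Between 12 and 72 h, 5 of 8 were called, against 67.6% of all genes, 35.6% higher and 32% lower, with HEY1 higher (1.86 ± 0.24) and NOTCH1 (-1.28 ± 0.11), JAG1 (-0.85 ± 0.10), NRARP (-0.76 ± 0.18) and NOTCH3 (-0.49 ± 0.08) lower. With library sizes only, all 8 were called there, 4 higher and 4 lower. Of 16522 genes, 7477 were then called as higher and 3496 as lower, with 68.1% of the calls higher in place of 52.6%. Between 12 and 48 h 73.0% of the calls were higher in place of 53.7%. Between 24 and 72 h, 4 of 8 were called, all lower at 72 h, against 40.2% of all genes, 20.6% higher and 19.7% lower: JAG1 (-0.66 ± 0.10), NOTCH1 (-0.59 ± 0.11), HES1 (-0.39 ± 0.10) and NOTCH3 (-0.28 ± 0.08). HEY1 was 0.53 ± 0.22 higher at 72 than at 24 h with an adjusted p of 0.0516, and all 4 of its 72 h libraries lay above all 24 h libraries.

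Around the members, 52 other genes of the pathway were counted, and 44 of them were tested. At 12 h, 36 were called, 23 higher and 13 lower. At 24 h 28 were called (14 and 14), at 48 h 21 (10 and 11) and at 72 h 25 (10 and 15). This is 81.8, 63.6, 47.7 and 56.8% of the tested genes of the list, beside 69.4, 58.8, 45.8 and 61.6% of all genes. Its median log2 fold change was 0.30, 0.10, -0.08 and -0.10 in order of time. When only library sizes were used the 12 h calls were 15 higher and 19 lower, beside 3581 higher and 8275 lower of 16522 genes. With a factor per gene from the deposited normalized values, only 38 genes of the list were tested. At 48 h 4 of them were higher and 7 lower, beside 1949 higher and 2385 lower of 11956 genes. The other 8 genes, NOTCH4, DLL4, DLK1, DLK2, HES5, HES7, HEYL and DTX1, had at most 11 counts in any library.

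**Figure D4:**
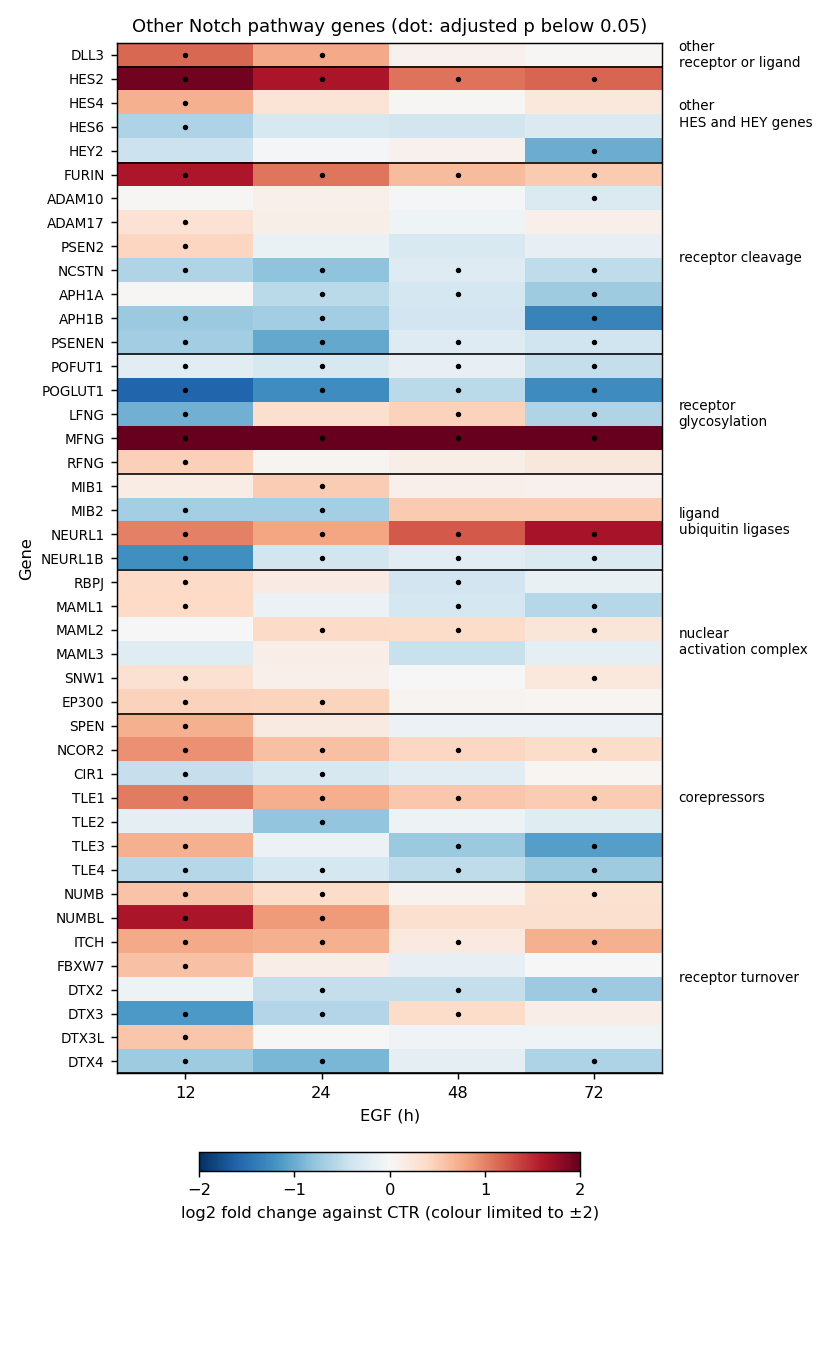
Log2 fold change against untreated cells (CTR) of tested genes of the wider Notch list at the 4 times of EGF, ordered by role; red is higher, blue is lower, colours stop at ±2, and a dot marks an adjusted p under 0.05. MFNG and HES2 are red at all times, and POGLUT1, NCSTN and PSENEN are blue.

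Among other ligands and HES and HEY genes, DLL3 and HES2 rose. DLL3, a ligand that inhibits Notch in the same cell, was at 2.41 CPM in CTR and 5.36 CPM at 12 h (1.15 ± 0.14, adjusted p = 1.55e-07), and its value was 0.03 ± 0.15 at 72 h (adjusted p = 0.887). HES2, a repressor of the same family as HES1, was at 1.22 CPM in CTR and 4.64 CPM at 12 h (1.93 ± 0.20, adjusted p = 6.13e-09) and was called as higher at all times. Of the other HES and HEY genes tested, HES4 was called as higher and HES6 as lower at 12 h, and HEY2 as lower at 72 h (-0.99, adjusted p = 0.0450). The call of HEY2, which had few counts, was lost in DESeq2's Wald test (adjusted p = 0.107), with a replicate block (adjusted p = 0.0566), and without any single CTR replicate 1, 2 or 3 or EGF 72 h replicate 1, 3 or 4.

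Receptor cleavage genes moved in different directions. FURIN, the protease that cuts the receptor precursor, rose at all times, from 6.04 CPM in CTR to 18.5 CPM at 12 h (1.62 ± 0.10, adjusted p = 2.26e-12) and 8.67 CPM at 72 h (0.52 ± 0.11, adjusted p = 0.000205). With a factor per gene from the deposited normalized values FURIN was not called at 48 and 72 h (0.28 and 0.08). Of the gamma-secretase subunits, PSENEN fell from 31.2 CPM in CTR to 15.3 CPM at 24 h (-1.02 ± 0.10, adjusted p = 3.29e-09) and was lower at all times, and APH1B fell from 3.40 CPM to 1.34 CPM at 72 h (-1.33 ± 0.20, adjusted p = 3.75e-06). NCSTN was called as lower at all times and APH1A from 24 h on, while PSEN2, a catalytic subunit, was called as higher at 12 h, but not with library sizes only. At 48 h PSENEN was at -0.26, and this call was lost without CTR replicate 1 (-0.19) and without EGF 48 h replicates 1, 3 or 4 (-0.26, -0.25 and -0.22).

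Of 5 genes that add sugars to the receptor, POGLUT1 was called as lower and MFNG as higher at all times. POFUT1, which adds fucose, was called as lower at all times too, but its 48 h value was -0.16 (adjusted p = 0.0409) and was not called under library sizes only (-0.15), upper quartile scaling (-0.14) or a factor per gene (-0.06), nor without any single CTR replicate 1, 2 or 4 or any single EGF 48 h replicate. Its 12 h call (-0.22) was lost with a factor per gene (-0.09, adjusted p = 0.383). MFNG, the Manic fringe glycosyltransferase, had 1 to 11 counts per library in CTR, at 0.211 CPM, and 36 to 72 counts at 72 h, at 2.44 CPM (3.47 ± 0.36, adjusted p = 1.03e-08). POGLUT1, which adds glucose, fell from 15.1 CPM in CTR to 5.05 CPM at 12 h (-1.58 ± 0.16, adjusted p = 4.7e-09). At 48 h POGLUT1 was at -0.54, and with a factor per gene at -0.19 and not called (adjusted p = 0.541). LFNG, Lunatic fringe, was lower at 12 h (-0.96 ± 0.19, adjusted p = 8.17e-05), higher at 48 h (0.46 ± 0.17, adjusted p = 0.0280) and lower at 72 h (-0.61 ± 0.18, adjusted p = 0.00617). The 48 h call of LFNG was lost without CTR replicates 3 or 4 or EGF 48 h replicate 1 (0.35, 0.43 and 0.40).

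The ligand ubiquitin ligases NEURL1 and NEURL1B went in opposite directions. NEURL1 was at 2.91 CPM in CTR and 9.24 CPM at 72 h (1.65 ± 0.19, adjusted p = 5.75e-08). NEURL1B was at 42.0 CPM in CTR and 17.9 CPM at 12 h (-1.23 ± 0.09, adjusted p = 1.93e-11). At 48 h NEURL1B was at -0.21 (adjusted p = 0.0492), which leaving out any of 16 of the 20 libraries took past the threshold. Of 6 nuclear activation genes, RBPJ, MAML1, SNW1 and EP300 were called as higher at 12 h and none as lower, and at 48 h RBPJ (-0.38) and MAML1 (-0.36) were called as lower and MAML2 (0.37) as higher. The 48 h call of MAML1 was lost with a factor per gene (-0.17, adjusted p = 0.554) and that of RBPJ with only the 8 libraries compared (-0.39, adjusted p = 0.0568). Without TMM factors, with library sizes only, none of the 4 genes higher at 12 h was called there. Of 7 corepressors, TLE1 rose at all times, from 40.0 CPM in CTR to 82.0 CPM at 12 h (1.04 ± 0.07, adjusted p = 7.17e-12). TLE3 was higher at 12 h (0.71 ± 0.12, adjusted p = 1.26e-05) and lower at 72 h (-1.10 ± 0.12, adjusted p = 5.03e-08).

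Of 8 tested genes of receptor turnover, NUMBL and DTX3 were the ones named by size of change. NUMBL, related to the Notch inhibitor NUMB, rose from 6.74 CPM in CTR to 20.9 CPM at 12 h (1.63 ± 0.15, adjusted p = 9.89e-10), and NUMB and ITCH, a ubiquitin ligase, were called as higher at 12 h as well. DTX3, a Deltex ligase, fell from 4.45 to 2.01 CPM at 12 h (-1.14 ± 0.16, adjusted p = 1.18e-06) and was 0.37 ± 0.15 higher at 48 h (adjusted p = 0.0399). The 48 h call of DTX3 was lost without CTR replicates 3 or 4 (0.24 and 0.36) and without EGF 48 h replicates 1 or 2 (0.27 and 0.36), and in DESeq2's Wald test (0.37, adjusted p = 0.0622).

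The genes whose course was most like that of a member were searched among 13881 genes with a mean of at least 1 CPM, by the root mean square difference of the 4 log2 fold changes against CTR. For NOTCH1 these were MAP3K20 (0.0471), PUM3 (0.0666) and AC046143.1 (0.0766). For NOTCH2 they were NUDT5 (0.0211), HECTD4 (0.0234) and GSKIP (0.0363), and for NOTCH3 OGG1 (0.0354), CEP135 (0.0431) and ZNF174 (0.0495). MST1R, a receptor tyrosine kinase, was closest to JAG1 (0.0900), followed by SLC38A2 (0.0908) and SNX9 (0.0916). SLC20A1 (0.124), MXD1 (0.165) and C12orf75 (0.168) were closest to JAG2. For HES1 these were CYYR1 (0.0673), POMP (0.105) and ATP2C2 (0.105), for HEY1 AC093904.4 (0.0773), XKR9 (0.0777) and SLC4A4 (0.133), and for NRARP HNRNPDL (0.0565), TARDBP (0.0720) and DDAH1 (0.0736). No member was among the 3 genes closest to another member. Since only 3 of 13881 genes were kept for each, this cannot tell whether members had like courses. All these values share the same 4 CTR libraries.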

How the data were processed

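RNA-seq was measured in 20 libraries of MDA-MB-468 cells. The authors deposited an estimated count per gene and library, unnormalized, and a normalized value, a score on the scale of counts made with DESeq2. The deposited normalized values were used in 1 alternative only. The aligner, counter, annotation and handling of strand and of molecular identifiers are not given in the sources used here, so counts may hold PCR duplicates, and the submitters' processing notes name hg38. The deposited tables also hold the authors' fold changes and p-values, which were not used. The 10 tables held the same counts, and 1 was read.

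Counts were filtered by filterByExpr, scaled by TMM and tested by the quasi-likelihood test (robust) of edgeR 4.0.16 in R 4.3.3, after a test on simulated data. Contrasts were all 10 pairs of groups, with a prior count of 0.125. Alternatives were other scalings and filters, DESeq2 1.42.0, glmTreat against 1.5-fold, a replicate block, a prior count of 2, factors per gene, only the 8 libraries compared, and leaving out each library. Replicates differed by more than sampling noise, with a chi-square of 3.36 to 51.7 per degree of freedom over 30 pairs.

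Positions are from GENCODE 29, in which 58036 of 60271 gene IDs were found. Named are all members. Of the wider list, 14 of 24 genes were named, by largest change, that had an adjusted p under 0.05, a level over 1.5-fold or under 0.667-fold that of CTR and no overlap with CTR at some time. For each member, the 3 genes closest in course were named, and the paralogs of NOTCH2. The values of 1 gene of the wider list are not reported here, though it is counted in the list. Members and lists were chosen with earlier results of these data known.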

Additional observations from a re-analysis of the deposited data

Results flagged for a closer look

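In 2 of 40 groups of 4 libraries, 1 library stood apart from the other 3 by Dixon's test, as chance would give in about 1 group in 20. NOTCH2 was at 302 CPM in EGF 24 h replicate 3, and NOTCH3 at 206 CPM in EGF 48 h replicate 2. The latter also had the highest mitochondrial share, 16.9%, and without it the NOTCH3 change at 48 h was -0.43 in place of -0.34.

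Of 24 differences between successive times, 15 had an adjusted p under 0.05, by edgeR's quasi-likelihood test of the difference itself. By step this was 50, 75 and 62.5% of the 8 members, beside 53.7, 50.2 and 35.7% of all genes. From 12 to 24 h these were NOTCH1 (-0.69), NOTCH3 (-0.21), HES1 (0.45) and HEY1 (1.32). From 24 to 48 h they were NOTCH1 (-0.94), NOTCH2 (-0.24), JAG1 (-0.84), JAG2 (-1.27), HES1 (-0.77) and NRARP (-0.59). From 48 to 72 h they were NOTCH1 (0.35), NOTCH3 (-0.42), JAG2 (1.28), HES1 (0.38) and HEY1 (0.59). HES1 was called at all 3 steps, in the directions up, down and up, with NOTCH1 the only other member called at each step.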

How the results depend on the processing

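The 80 changes of the tested members kept their direction and their side of the threshold under the DESeq2 Wald test. A prior count of 2 kept the directions. It could not move the side of the threshold, since it enters the fold change and not the test. The values that turned direction were not called with TMM. Under library sizes only these were NOTCH2 (-0.16) and NRARP (-0.13) at 12 h, NOTCH2 (0.21) and NOTCH3 (0.22) for 48 h against 12 h, NOTCH2 for 72 h against 12 h (0.20) and against 48 h (-0.015), and HEY1 for 48 h against 24 h (0.10). Upper quartile scaling turned NOTCH2 (-0.039) and NRARP (-0.0062) at 12 h, NOTCH2 (0.098) and NOTCH3 (0.11) for 48 h against 12 h, NOTCH2 for 72 h against 12 h (0.13) and HEY1 for 48 h against 24 h (0.012). A minimum of 10 counts in every library turned HES1 at 72 h (0.016), NOTCH3 for 48 h against 12 h (0.0040) and NOTCH2 for 72 h against 12 h (0.080), and left 3 members called for 72 h against 48 h, since it removed JAG2 and HEY1. Factors per gene turned NOTCH2 for 72 h against 12 h (0.24) and against 24 h (0.019), and with only the 8 libraries compared NOTCH2 for 72 h against 12 h was 0.0034. Leaving out 1 library turned 9 of 1600 values, none of them called: HES1 at 72 h ranged from -0.074 to 0.0074, NOTCH2 for 72 h against 12 h from -0.057 to 0.020, and JAG2 for 72 h against 24 h from -0.11 to 0.15.

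Tested against a 1.5-fold change, which asks for more by construction, member calls were 2 at 24 h, 1 at 48 h, 1 for 24 h against 12 h, 3 for 72 h against 12 h, 3 for 48 h against 24 h and 1 for 72 h against 48 h. For 72 h against 24 h edgeR's glmTreat called 0 members, with 0 at an unadjusted p under 0.05, where the quasi-likelihood test and DESeq2 called 4 each. The wider list had 13, 9, 3 and 6 calls in order of time. All genes had 5753, 3474, 1916 and 3899 calls against CTR, 2199, 5628 and 4672 against 12 h, 1818 and 1106 against 24 h and 883 against 48 h. Factors per gene, with 11956 genes tested, gave 6336, 4334 and 6559 calls for 24, 48 and 72 h against CTR, 5835, 7627 and 7268 against 12 h, 4993 and 3612 against 24 h and 3209 against 48 h. The wider list then had 11 calls at 48 h among 38 genes tested. With only the 8 libraries compared it had 12 among 44. Under library sizes only, 8 members were called for 72 h against 12 h and 3 for 72 h against 48 h. Of all genes, 7477 were then higher and 3496 lower for 72 h against 12 h, and 2132 higher and 4175 lower for 72 h against 48 h. Leaving out each library in turn gave 3 to 5 member calls for 72 h against 48 h in place of 5, and 4912 to 6306 calls of all genes in place of 5906.

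Replicate numbers do not mark shared cultures in the labels. Libraries of the same number correlated with r from -0.398 to 0.583 (mean 0.0401, over 0.1 in 9 of 40 pairs), and 4 of 20 were closest to their own number. With a replicate block the members had the same number of calls in each comparison, all genes had 11577 in place of 11465 at 12 h, and JAG2 for 72 h against 24 h turned to -0.017. Depth limits JAG2, HEY1, NRARP, MFNG, APH1B, LFNG, HEY2, MIB2 and MAML3, with under 100 counts per library. HEY2 had at most 19 counts in any library.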

Other observations

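Besides NOTCH2, the table holds human NOTCH2NL genes, short copies of the start of NOTCH2 that are known from brain development. NOTCH2NLC was higher at 24, 48 and 72 h. The 4 CTR libraries held 32.5, 37.6, 33.6 and 37.7 CPM, its 24 h libraries 53.4, 54.6, 52.7 and 46.3 CPM and its 72 h libraries 69.3, 67.0, 62.1 and 67.1 CPM. All libraries at these times lay above all CTR libraries. For this gene the log2 fold change was 0.55 ± 0.07 at 24 h (adjusted p = 5.08e-07), 0.54 ± 0.07 at 48 h (adjusted p = 1.22e-06) and 0.91 ± 0.07 at 72 h (adjusted p = 8.54e-11). At 12 h it was 0.03 ± 0.07 (adjusted p = 0.769).

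NOTCH2NLA, at 7.24 ± 1.25 CPM in CTR (SD, n = 4), was higher by 0.76 ± 0.14 at 24 h, 0.46 ± 0.14 at 48 h and 0.66 ± 0.14 at 72 h in edgeR's test (adjusted p = 4.9e-05, 0.00898 and 0.000227). NOTCH2NLB had 0 to 87 counts per library and was called at no time in edgeR's test. NOTCH2NLR had 6 to 11 counts in each CTR library, 0 in all libraries at 12 and 24 h and 0 to 12 at 48 and 72 h, and was not tested. These genes share long stretches of sequence with NOTCH2 and with each other, and how shared reads were counted is not given in the sources used here. The values are therefore uncertain for each gene alone.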
